A study of Homo sapiens with 3 samples.

Results

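The SR and hnRNP splicing factors were examined gene by gene in single-cell RNA-seq of prostate cancer cell lines. Members were all gene rows named SRSF or HNRNP followed by a member code, without the rows of pseudogenes. The rule found 36 of the 33423 genes in the data, 12 in the SR family and 24 in the hnRNP family. It left out 116 pseudogene rows.

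SR proteins are RNA-binding proteins with a tail rich in arginine and serine repeats. They bind exons, recruit the spliceosome and mostly favour inclusion of the exon they bind. The hnRNP proteins coat nascent transcripts, often repress splice sites, and take part in mRNA export, stability and translation. The balance between both families sets much of alternative splicing, which in prostate cancer also shapes splice variants of hormone receptors. Many of these genes carry exons or introns that lead to decay of their own mRNA and so regulate themselves. Transcripts of a gene were summed in these counts, so protein-coding and decay-prone forms could not be told apart.

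The libraries were made by Drop-seq, which tags each captured mRNA molecule with a unique molecular identifier (UMI). VCaP and LNCaP are prostate cancer cell lines, and enzalutamide (ENZ) is a drug that blocks androgen signalling. VCaP parental was VCaP treated with 0.1% DMSO for 48 h, VCaP–ENZ48 was VCaP in 10 µM ENZ for 48 h, and LNCaP–ENZ168 was LNCaP in 10 µM ENZ for 168 h. There was 1 library per group, which leaves every difference without a replicate check. No test was made, and 95% intervals cover counting error only.

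After filtering, 944 to 997 cells per library remained, with a median of 17817 UMIs per cell in VCaP parental, 11224 in VCaP–ENZ48 and 5389 in LNCaP–ENZ168. Of 1000 barcodes, 860 in VCaP parental, 869 in VCaP–ENZ48 and 212 in LNCaP–ENZ168 ended in N in place of a base. Each pair of libraries shared 1 cell barcode, and no kept cells shared one. The epithelial markers KRT8, KRT18, EPCAM and HOXB13 summed to 1037 to 1319 CPM (UMIs per 1000000 UMIs of the library), and all 4 were detected in every library. Markers of fibroblasts, leukocytes and endothelium summed to at most 1.58 CPM, with 5 of 6 found, and 4 of those were at 0 in LNCaP–ENZ168. ERG, which VCaP expresses from a gene fusion, was at 105 and 57.1 CPM in the VCaP libraries and had 0 UMIs in LNCaP–ENZ168.

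A UMI counts 1 mRNA molecule near its 3′ end, so levels were not divided by transcript length when genes were compared. All but 5 of the members reached a mean of 10 CPM in both comparisons, and these 31 covered a wide range of levels, from 11.3 CPM for HNRNPUL2 in VCaP–ENZ48 to 1633 CPM for HNRNPA2B1 in VCaP parental. HNRNPA1L2 had 31, 41 and 19 UMIs in VCaP parental, VCaP–ENZ48 and LNCaP–ENZ168. The HNRNPC-like genes HNRNPCL1, HNRNPCL2 and HNRNPCL3 had at most 8 UMIs in any library. SRSF12 had 118 UMIs (6.05 CPM), 78 UMIs (5.45 CPM) and 6 UMIs (0.950 CPM), in the same order. By CPM, 13 of the 31 members were highest in VCaP parental, 3 in VCaP–ENZ48 and 15 in LNCaP–ENZ168. The same count was not made over all genes. The median gene also had a higher CPM in LNCaP–ENZ168 than in VCaP–ENZ48, by 0.65 on the log2 scale. Whether the count is particular to the members was not tested.

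**Figure D1:**
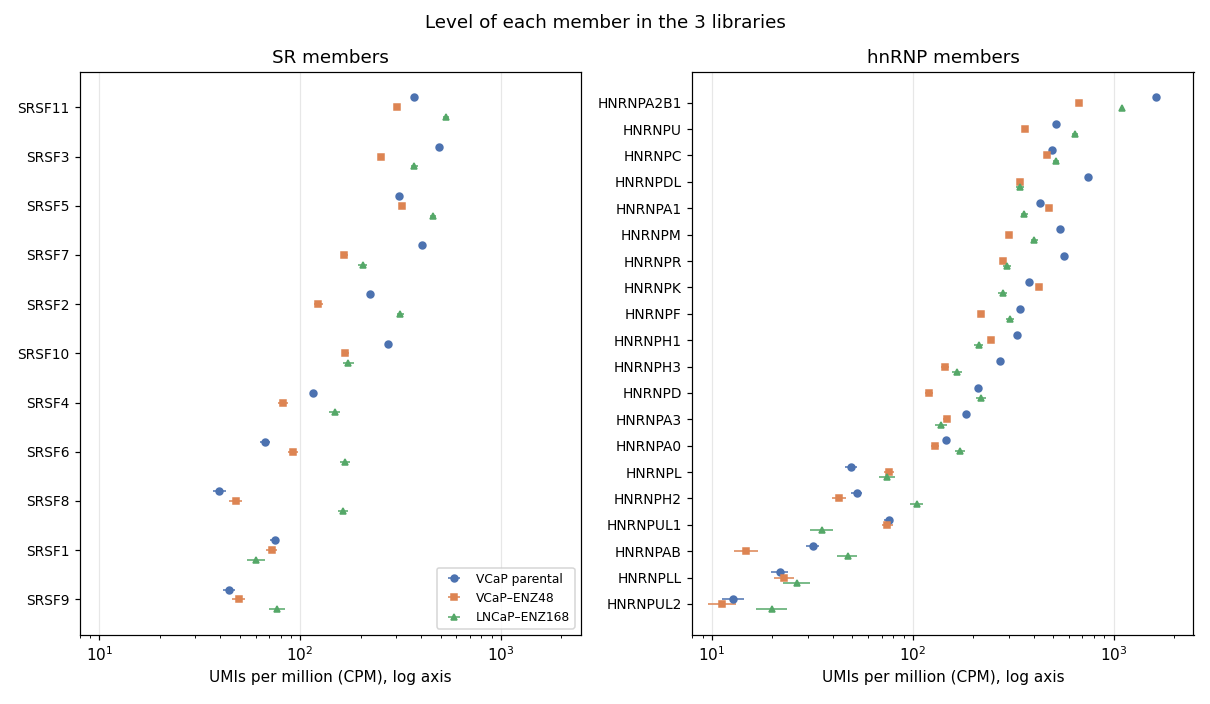
Level of the 31 members that averaged 10 CPM or more, in CPM on a log axis, with 95% Poisson intervals. Circles are VCaP parental, squares VCaP–ENZ48 and triangles LNCaP–ENZ168, and genes are ordered by mean level. HNRNPA2B1 stands apart at the top, at 1633, 669.5 and 1107 CPM.

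HNRNPA2B1 (GRCh38 chromosome 7, 26171151 to 26201529, minus strand) was the member with the highest level in every library. It encodes hnRNP A2 and B1, abundant proteins of the hnRNP core that repress exons and sort RNAs. Its level was 1633 CPM (31864 UMIs) in VCaP parental, 669.5 CPM (9575 UMIs) in VCaP–ENZ48 and 1107 CPM (6988 UMIs) in LNCaP–ENZ168. It made up 23.2%, 14.6% and 20.2% of the hnRNP UMIs in these libraries. The next in mean level was HNRNPU, a nuclear scaffold protein, at 515 CPM, 362 CPM and 642 CPM. HNRNPC, which binds uridine tracts and packages new transcripts, was at 494 CPM, 465 CPM and 519 CPM, the narrowest spread of the 8 members with the highest mean levels. HNRNPM, which binds GU-rich RNA, was at 539 CPM, 302 CPM and 403 CPM. Among SR genes, SRSF11, an atypical SR protein, had the highest mean level, at 367 CPM, 304 CPM and 534 CPM.

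The SR family together held 2416 CPM in VCaP parental, 1684 CPM in VCaP–ENZ48 and 2676 CPM in LNCaP–ENZ168. The hnRNP family held 7033 CPM, 4580 CPM and 5470 CPM. Both sums were therefore lowest in VCaP–ENZ48 by CPM. To compare libraries, the log2 ratio of CPM + 1 was taken for each gene, and the median of that ratio over all genes that averaged 10 CPM or more was subtracted. This relative ratio is 0 for the median gene. The subtracted median was -0.07 for VCaP–ENZ48 over VCaP parental and 0.65 for LNCaP–ENZ168 over VCaP–ENZ48. A gene was called lower or higher when the relative ratio passed 1.5-fold, which is 0.585 on the log2 scale.

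The first comparison asks how the members differed between ENZ-treated and vehicle-treated VCaP cells. Relative to all genes, 11 of the 31 members were lower by at least 1.5-fold in VCaP–ENZ48, beside 15% of all 7729 genes compared. Only HNRNPL was higher by at least 1.5-fold, 1 of 31, beside 17.5% of all genes. The members' median relative ratio was -0.26 (counting interval -0.41 to -0.18), where that of all genes is 0 by construction. The 11 SR members had a median of -0.21, with 4 lower and 0 higher (median -0.13 with only barcodes that end in a base), and the 20 hnRNP members a median of -0.31, with 7 lower and 1 higher. As summed families, the SR genes were at -0.45 (95% interval -0.48 to -0.43) and the hnRNP genes at -0.55 (-0.57 to -0.54), with HNRNPA2B1, the member with the most UMIs, also the one with the lowest ratio.

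**Figure D2:**
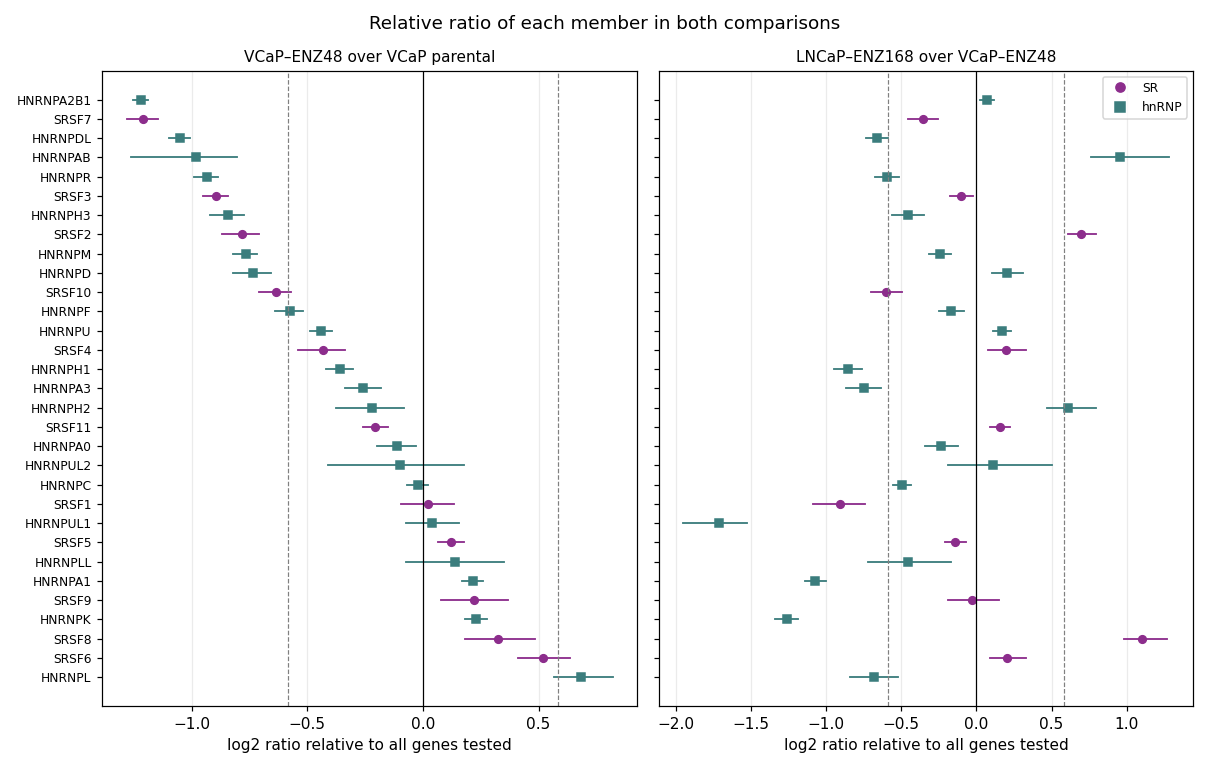
Relative log2 ratio of each of 31 members (rows) in VCaP–ENZ48 over VCaP parental (left) and LNCaP–ENZ168 over VCaP–ENZ48 (right), with exact 95% counting intervals. Circles are SR genes, squares hnRNP genes, and dashed lines mark 1.5-fold. Left, the values run from -1.22 for HNRNPA2B1 to 0.68 for HNRNPL. Right, they run from -1.71 for HNRNPUL1 to 1.10 for SRSF8, and rows keep the order of the left panel.

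The members with the lowest ratios were HNRNPA2B1, SRSF7 and HNRNPDL, the only ones lower by more than 2-fold. HNRNPA2B1 went from 1633 to 669.5 CPM, a relative ratio of -1.22 (95% interval -1.25 to -1.19). SRSF7 (chromosome 2, 38743599 to 38751494, minus strand), an SR protein that also couples splicing to mRNA export, was at 403 CPM in VCaP parental and 166 CPM in VCaP–ENZ48. Its relative ratio was -1.21 (-1.28 to -1.15). HNRNPDL (chromosome 4, 82422565 to 82430462, minus strand), a paralogue of the decay factor HNRNPD, went from 744 to 343 CPM, a relative ratio of -1.05 (-1.10 to -1.005). For these genes the intervals of the libraries' levels lay far apart.

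HNRNPR and SRSF3 followed among members with 50 CPM or more in either library. SRSF3 (chromosome 6, 36594353 to 36605600, plus strand), the smallest SR protein and a partner of SRSF7 in mRNA export, was at 491 CPM in VCaP parental and 252 CPM in VCaP–ENZ48. Its relative ratio was -0.89 (95% interval -0.95 to -0.84). HNRNPR (chromosome 1, 23303771 to 23344336, minus strand), which binds mRNA and aids its transport, went from 564 to 282 CPM, a relative ratio of -0.93 (-0.99 to -0.88). The other members called lower were HNRNPAB, HNRNPH3, SRSF2, HNRNPM, HNRNPD and SRSF10, with relative ratios between -0.98 and -0.63. The last called member was SRSF10, at -0.63, and the nearest member short of the threshold was HNRNPF, at -0.58.

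Relative ratios were below 0 for 21 of the 31 members and above 0 for 10. Members below 0 but short of the threshold included HNRNPU (-0.44), SRSF4 (-0.43) and HNRNPH1 (-0.36). Some other members differed little or in the other direction. HNRNPL (chromosome 19, 38836370 to 38852347, minus strand), which binds CA repeats, was at 49.2 CPM in VCaP parental and 76.1 CPM in VCaP–ENZ48, a relative ratio of 0.68 (95% interval 0.57 to 0.82). SRSF6 (chromosome 20, 43457893 to 43466046, plus strand), an SR protein with paired RNA-binding domains, was at 67.0 CPM and 92.1 CPM, a relative ratio of 0.52 (0.41 to 0.64), below the threshold. HNRNPK, which binds cytidine-rich RNA, was at 381 CPM and 427 CPM (0.23, interval 0.18 to 0.28). HNRNPA1, the classical exon silencer, was at 433 CPM and 479.5 CPM (0.21, interval 0.17 to 0.26). SRSF5, a relative of SRSF6, was at 309.96 CPM and 322 CPM, a relative ratio of 0.12. SRSF1, the founding SR protein, had 74.6 CPM and 72.2 CPM (0.02, interval -0.10 to 0.14), and HNRNPC had a relative ratio of -0.02 (-0.07 to 0.02), both with intervals that include 0.

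Ratios between paralogues within a library do not depend on how libraries are scaled. There were 3.77 UMIs of HNRNPA2B1 for each UMI of HNRNPA1 in VCaP parental (95% interval 3.69 to 3.87), 1.40 in VCaP–ENZ48 (1.35 to 1.44) and 3.08 in LNCaP–ENZ168 (2.94 to 3.23). The ratio of these exon repressors was thus lowest in VCaP–ENZ48. SRSF7 had 6.02 UMIs for each UMI of SRSF6 in VCaP parental, 1.80 in VCaP–ENZ48 and 1.22 in LNCaP–ENZ168. SRSF3 had 7.33, 2.74 and 2.21 UMIs per SRSF6 UMI. Both ratios to SRSF6 were highest in VCaP parental and lowest in LNCaP–ENZ168, with intervals that did not overlap. SRSF7 and SRSF3 were among the lowest members of the first comparison and SRSF6 among the highest. Their ratios between the VCaP libraries therefore restate that comparison, as does that of HNRNPA2B1 to HNRNPA1. Between SRSF7 and SRSF3 themselves the ratio was 0.821 (0.797 to 0.846), 0.659 (0.625 to 0.694) and 0.553 (0.517 to 0.592). The ratio of HNRNPH3 to HNRNPH1, which both bind guanosine runs, was 0.829, 0.592 and 0.781. SRSF6 to SRSF4 was 0.576 in VCaP parental, 1.12 in VCaP–ENZ48 and 1.13 in LNCaP–ENZ168, so the ENZ-treated libraries did not differ beyond their intervals (1.04 to 1.22 and 1.03 to 1.23).

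The make-up of the SR family shifted with these genes. SRSF3 and SRSF7 held 20.3% and 16.7% of SR UMIs in VCaP parental, 15.0% and 9.86% in VCaP–ENZ48, and 13.8% and 7.65% in LNCaP–ENZ168. SRSF5 held 12.8%, 19.1% and 17.2%, and SRSF11 15.2%, 18.1% and 19.9%. The leading SR gene was SRSF3 in VCaP parental, SRSF5 in VCaP–ENZ48 and SRSF11 in LNCaP–ENZ168. In the hnRNP family the share of HNRNPA1 was 6.15%, 10.5% and 6.57%, and that of HNRNPK 5.42%, 9.31% and 5.12%.

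**Figure D3:**
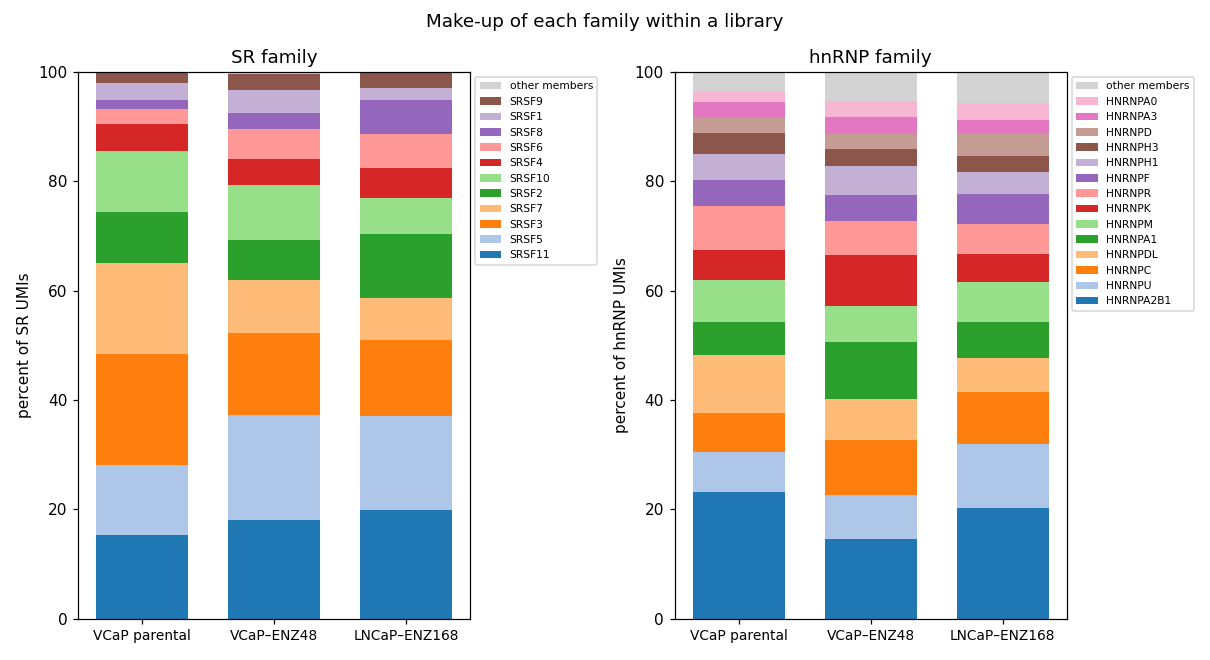
Share of each member in the UMIs of its family, in percent, for the SR family (left) and the hnRNP family (right), 1 stacked bar per library. Members under 2.5% in every library are pooled as other members. SRSF3 and SRSF7, the orange pair, are widest in VCaP parental, and HNRNPA2B1 at the foot of the right bars is narrowest in VCaP–ENZ48, at 14.6%.

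Cell cycle genes moved with this comparison. TOP2A, a mitotic topoisomerase, was at 1051 CPM in VCaP parental and 91.9 CPM in VCaP–ENZ48 (-3.43), and the proliferation marker MKI67 had a relative ratio of -3.03. The median relative ratio was -1.72 over 40 S phase genes, with 37 lower and 1 higher. Over 52 G2M genes it was -2.98, with 51 lower and 0 higher. None of the members is in these lists. Members were therefore compared between cells with many and few S and G2M UMIs within each library. Cells were thinned to 2000 UMIs to count S and G2M UMIs at equal depth. Levels of members were then summed over all UMIs of the chosen cells, without thinning. Thinning left out shallower cells, 30 of VCaP–ENZ48 and 1 of LNCaP–ENZ168.

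In VCaP parental, the 342 cells with the most S and G2M UMIs had higher relative levels of most members than the 341 cells with the fewest. The median of the members' relative ratios was 0.39, with a range of -0.46 to 0.87, where the quartiles of all genes were -0.23 and 0.27. HNRNPUL2, with few UMIs, had 0.87. HNRNPA2B1 had 0.80, HNRNPAB 0.77, HNRNPD 0.72, SRSF3 0.67, HNRNPR 0.67, HNRNPH3 0.63, HNRNPA3 0.62 and SRSF7 0.56. All of these but HNRNPUL2 and HNRNPA3 were called lower in VCaP–ENZ48. The other members called lower there were SRSF2 (0.56), HNRNPDL (0.53), SRSF10 (0.52) and HNRNPM, which had only 0.19. HNRNPA0 and HNRNPUL1 had 0.46 each and were not called lower. SRSF8, at -0.46, and SRSF5, at -0.25, had lower levels in the cells with many such UMIs, and HNRNPK and HNRNPL were within 0.01 of 0. The members' median was 0.10 in VCaP–ENZ48 and 0.27 in LNCaP–ENZ168. The quartiles of all genes were -0.13 and 0.13 in VCaP–ENZ48, and -0.23 and 0.23 in LNCaP–ENZ168. The cell groups were less far apart there, since they held at most 3 against at least 5 S and G2M UMIs in VCaP–ENZ48 and at most 5 against at least 9 in LNCaP–ENZ168, where VCaP parental had at most 10 against at least 37. SRSF8 and SRSF5 were also below 0 in both of these libraries, at -0.26 and -0.15 in VCaP–ENZ48 and at -0.53 and -0.33 in LNCaP–ENZ168. Median depth was 18413 UMIs per cell in the first and 16087 in the second of these cell groups of VCaP parental.

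**Figure D4:**
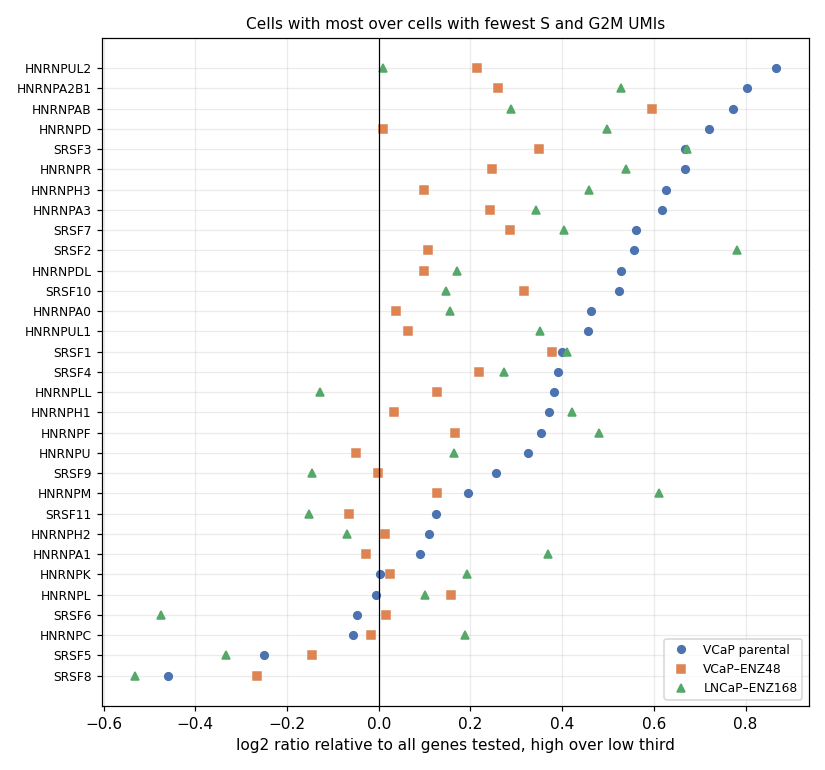
Relative log2 ratio of 31 members between the cells with the most and the cells with the fewest S and G2M UMIs (327 to 438 cells each), within VCaP parental (circles), VCaP–ENZ48 (squares) and LNCaP–ENZ168 (triangles). Rows are ordered by VCaP parental, from HNRNPUL2 at 0.87 to SRSF8 at -0.46, and SRSF8 and SRSF5 are left of 0 in all 3 libraries.

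The VCaP comparison was then repeated in cells with at most 6 S and G2M UMIs of 2000, which were 191 cells (19.2%) of VCaP parental and 769 (83.9% of the 917 thinned cells) of VCaP–ENZ48. TOP2A had a relative ratio of -1.59 there, so the cells were not fully matched. In these cells 5 of 30 members were lower by at least 1.5-fold, beside 9.62% of all genes, and 0 were higher, beside 15.9%. The 5 were HNRNPA2B1, SRSF7, HNRNPDL, HNRNPM and SRSF3. HNRNPA2B1 was at 1196 CPM in VCaP parental and 619 CPM in VCaP–ENZ48, a relative ratio of -0.86 (95% interval -0.92 to -0.81). SRSF7 was at 312 CPM and 159 CPM, a relative ratio of -0.88 (-0.99 to -0.77). HNRNPDL had -0.76, HNRNPM -0.71 and SRSF3 -0.59. HNRNPR at -0.57 and HNRNPAB at -0.56 were just short of the threshold, and HNRNPD had -0.29. Ratios were closer to 0 than in all cells for 22 of the 30 members, among them HNRNPL (0.47). The same count was not made over all genes. Of all genes, 9.62% were lower and 15.9% higher in these cells, beside 15% and 17.5% in all cells. SRSF6 (0.54) and HNRNPM were close to their values in all cells. The part of cell cycle differences in the remaining ratios was not tested.

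**Figure D5:**
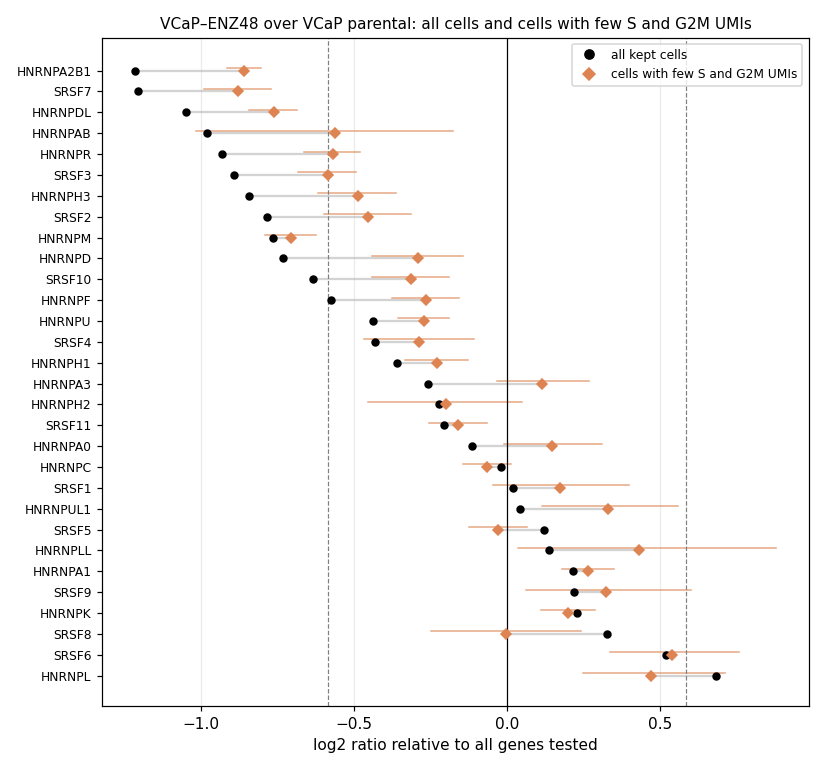
Relative log2 ratio in VCaP–ENZ48 over VCaP parental in all kept cells (black circles) and in cells with at most 6 S and G2M UMIs of 2000 (orange diamonds, with exact 95% counting intervals), for 30 members. Dashed lines mark 1.5-fold. Left of the lower line 5 diamonds remain, with HNRNPA2B1 at -0.86 and SRSF7 at -0.88.

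Promoter sequences are shown for the named members of this comparison whose RefSeq promoter (GRCh38.p14) held at least 150 bases outside annotated exons. SRSF3 (chr6:36594112-36594352, plus strand) and HNRNPR (chr1:23344337-23344534, minus strand) were lower in VCaP–ENZ48. SRSF6 (chr20:43457646-43457892, plus strand), HNRNPL (chr19:38852348-38852597, minus strand) and HNRNPK (chr9:83980283-83980463, minus strand, from a start inside the gene) were not. Sequences run 5′ to 3′, and capitals mark CCAAT, its reverse complement ATTGG, and TATAAA.
SRSF3: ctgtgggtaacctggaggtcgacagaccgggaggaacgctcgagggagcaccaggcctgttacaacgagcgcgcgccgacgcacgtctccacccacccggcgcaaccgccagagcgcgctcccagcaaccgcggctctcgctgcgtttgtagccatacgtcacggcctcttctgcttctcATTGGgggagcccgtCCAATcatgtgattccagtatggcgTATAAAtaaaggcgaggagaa
HNRNPR: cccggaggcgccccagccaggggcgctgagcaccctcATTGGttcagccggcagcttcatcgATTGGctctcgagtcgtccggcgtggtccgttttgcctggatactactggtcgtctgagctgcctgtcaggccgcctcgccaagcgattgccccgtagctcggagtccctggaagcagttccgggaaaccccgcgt
SRSF6: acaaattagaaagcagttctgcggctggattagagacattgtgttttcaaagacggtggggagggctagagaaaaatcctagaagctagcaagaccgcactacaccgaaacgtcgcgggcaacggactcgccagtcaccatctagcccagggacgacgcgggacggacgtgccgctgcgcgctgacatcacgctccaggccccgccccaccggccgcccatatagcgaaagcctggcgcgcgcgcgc
HNRNPL: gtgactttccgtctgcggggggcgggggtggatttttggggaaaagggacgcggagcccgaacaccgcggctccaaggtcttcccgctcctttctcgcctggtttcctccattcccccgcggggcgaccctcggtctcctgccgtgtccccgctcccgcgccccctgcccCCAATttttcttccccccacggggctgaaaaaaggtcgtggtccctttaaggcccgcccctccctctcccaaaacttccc
HNRNPK: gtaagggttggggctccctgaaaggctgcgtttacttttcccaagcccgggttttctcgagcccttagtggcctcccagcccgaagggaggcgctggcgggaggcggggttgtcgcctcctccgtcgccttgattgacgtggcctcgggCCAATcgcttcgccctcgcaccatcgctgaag
CCAAT was found on either strand in the 250 bases before the start in 23 of 47 promoters of 33 members, beside 32.01% of 35116 promoters in the table. TATAAA, the core of the TATA box, was in 6 of the 47, beside 10.7% of all. The E2F letters TTTCGCGC and TTTGGCGC were in 0 of the 47, beside 0.439% and 0.55% of all promoters. CCGGAAGT, an ETS core, was in 3 and the E-box CACGTG in 7, beside 3.42% and 6.34%. Of the sequences shown, SRSF3 held 2 CCAAT boxes and a TATA box, HNRNPR 2 CCAAT boxes, HNRNPL and HNRNPK 1 CCAAT box each, and SRSF6 neither motif. Letters for the CCAAT box were thus present both in members that were lower and in members that were not.

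The second comparison sets LNCaP–ENZ168 beside VCaP–ENZ48. Cell line and time in ENZ differ together here and cannot be told apart, the labels give these libraries different code prefixes, and VCaP–ENZ48 is part of both comparisons. Relative to all genes, 10 of 31 members were lower by at least 1.5-fold in LNCaP–ENZ168, beside 28.1% of all 8854 genes compared, and 4 were higher, beside 26.8%. The share of lower members was near that of all genes. The median was -0.24 (counting interval -0.31 to -0.13) for all 31 members, -0.03 for the SR genes and -0.45 for the hnRNP genes. Without the subtraction of the all-gene median, the median of all members was 0.42, with 2 lower and 12 higher, and under that scaling 15.0% of all genes were lower and 53.1% higher. Directions in this comparison are therefore relative to the median gene. In cells with at most 6 S and G2M UMIs of 2000, 10 members were lower, beside 28.8% of all genes, and 3 higher, beside 26.8%. SRSF2 was the member no longer called higher there, at 0.45.

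HNRNPUL1, HNRNPK and HNRNPA1 had the lowest ratios. HNRNPUL1 (chromosome 19, 41262496 to 41307787, plus strand), a relative of HNRNPU with roles in the DNA damage response, was at 76.0 CPM in VCaP parental, 74.7 CPM in VCaP–ENZ48 and 35.3 CPM in LNCaP–ENZ168. Its relative ratio in LNCaP–ENZ168 over VCaP–ENZ48 was -1.71 (95% interval -1.95 to -1.53), and UMIs per HNRNPU UMI were 0.148, 0.206 and 0.055. HNRNPK (chromosome 9, 83968083 to 83980631, minus strand) was at 280.04 CPM in LNCaP–ENZ168, a relative ratio of -1.26 (-1.34 to -1.19). HNRNPA1 (chromosome 12, 54280193 to 54287088, plus strand) was at 359 CPM, a relative ratio of -1.07 (-1.14 to -1.003). These genes were also lower than in VCaP parental by CPM. SRSF1 (chromosome 17, 58000919 to 58007346, minus strand) was at 60.5 CPM (-0.91, interval -1.08 to -0.74) and HNRNPH1 at 213 CPM (-0.85, interval -0.95 to -0.76).

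SRSF8 was the member with the highest ratio. It arose as a copy of SRSF2 and lies on chromosome 11 (95066919 to 95071225, plus strand). Its level was 39.7 CPM (774 UMIs) in VCaP parental, 47.7 CPM (682 UMIs) in VCaP–ENZ48 and 164 CPM (1034 UMIs) in LNCaP–ENZ168, a relative ratio of 1.10 (95% interval 0.98 to 1.27) in LNCaP–ENZ168 over VCaP–ENZ48. SRSF2 (chromosome 17, 76734115 to 76737333, minus strand) was at 223 CPM, 123 CPM and 316 CPM, a relative ratio of 0.69 (0.61 to 0.79), which was 0.45 in cells with few S and G2M UMIs. The share of SRSF8 in SR UMIs was 1.64%, 2.83% and 6.12%, and its UMIs per SRSF2 UMI were 0.178, 0.387 and 0.519. Both genes thus had their highest CPM in LNCaP–ENZ168, and the ratio of SRSF8 to SRSF2 was highest there too.

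HNRNPH2 on chromosome X (101408222 to 101414133, plus strand) was at 52.5 CPM, 42.8 CPM and 104 CPM, a relative ratio of 0.61 (95% interval 0.47 to 0.79). Its exons overlap those of the readthrough gene RPL36A-HNRNPH2 on the same strand, so its row is uncertain. HNRNPAB, which falls under the level set for naming, was called higher as well, at 14.8 CPM in VCaP–ENZ48 and 47.4 CPM in LNCaP–ENZ168 (0.96, interval 0.76 to 1.28). SRSF6 at 168 CPM and HNRNPD at 219 CPM in LNCaP–ENZ168 had relative ratios of 0.20 each, under the threshold. HNRNPD, which binds AU-rich elements and speeds decay of mRNAs that carry them, was at 210 CPM in VCaP parental and 120.3 CPM in VCaP–ENZ48. The ratio of HNRNPDL to HNRNPD was 3.54, 2.85 and 1.56 in VCaP parental, VCaP–ENZ48 and LNCaP–ENZ168, and the ratio of SRSF9 to SRSF1 was 0.595, 0.685 and 1.27.

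In counts of single cells, the spread of members was set beside that of genes of similar level. In cells thinned to 2000 UMIs, HNRNPA2B1 had 3.10 UMIs per cell in VCaP parental, and the variance over cells was 1.47 times the mean. The 50 genes of similar level had a median of 1.203, and HNRNPA2B1 was above 70% of them. In VCaP–ENZ48 it had 1.36 UMIs per cell and a variance of 1.14 times the mean, beside 1.24 for genes of similar level. HNRNPK in LNCaP–ENZ168 had a variance of 0.921 times the mean, beside 1.08 for such genes. Over all members with at least 0.2 UMIs per cell, the variance was 0.921 to 1.47 times the mean. Sums over a library do not tell fewer cells with a transcript from less RNA per cell.

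Some rows could share reads with other genes. Exons of 11 members overlap another annotated gene on the same strand. Besides HNRNPH2, these include HNRNPL, HNRNPK, SRSF1, SRSF2 and SRSF6, so their rows are uncertain too. Exons of 12 members overlap a gene on the opposite strand, such as CBX3 with HNRNPA2B1 and MFSD11 with SRSF2. The 116 pseudogene rows held 792, 1153 and 219 UMIs, or 0.43%, 1.29% and 0.426% of the members' UMIs in VCaP parental, VCaP–ENZ48 and LNCaP–ENZ168. For HNRNPA1, 73 pseudogene rows held 5.66%, 10.1% and 5.82% as many UMIs as the gene itself. The share of reads that belong to the parent genes was not tested.

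Lists of related splicing factors outside the naming rule were read beside the shares of all genes, 15% lower and 17.5% higher in VCaP–ENZ48 over VCaP parental. Of 12 hnRNP-class genes with other symbols, 2 were lower and 0 higher, with a median of -0.42, so the count of lower genes was near the share of all genes. RBMX (hnRNP G) was at -0.63 and SYNCRIP (hnRNP Q) at -0.62, while PCBP2 and TARDBP were at -0.06 each. Of 14 SR-related proteins and SR kinases, 4 were lower and 1 higher, with a median of -0.34. TRA2B, a splicing activator that acts with SR proteins, went from 191 to 87.5 CPM (-1.05), and the SR kinase SRPK1 from 129.8 to 67.2 CPM (-0.87), while SRPK2 was at 0.00. Of 43 core spliceosome genes, 16 were lower and 1 higher, with a median of -0.36, and SNRPD1, a ring protein of the spliceosomal particles, was at -1.24. Of 13 other splicing regulators, 2 were lower and 2 higher, with a median of -0.37.

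In LNCaP–ENZ168 over VCaP–ENZ48 the shares of all genes were 28.1% lower and 26.8% higher. The hnRNP-class genes had a median of -0.39 with 4 of 12 lower and 2 higher, and RALY was at 1.36. The SR-related proteins and kinases had a median of 0.02 with 3 of 15 lower and 2 higher, with the speckle proteins SRRM1 at -1.33, SON at -1.22 and SRRM2 at 1.198. The core spliceosome had a median of -0.52 with 21 of 44 lower and 0 higher, and among those named SNRPG was at -2.84 and SF3B5 at 0.58.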

How the data were processed

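The study measured RNA in single cells of 3 libraries, 1 for each group. The authors processed Drop-seq reads with the Drop-seq tools, STAR and Picard on GRCh38 with Gencode annotation, and deposited raw UMI counts per gene and barcode, 1000 barcodes per library. Strand handling is not given in the sources used here.

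Barcodes with 300 or more genes, 500 or more UMIs and a mitochondrial share of up to 25% were kept, which left 19515202, 14301287 and 6313283 UMIs for VCaP parental, VCaP–ENZ48 and LNCaP–ENZ168. Doublets were not identified. UMIs were summed per library, and genes absent from a file counted as 0. Sums carry exact Poisson, ratios exact conditional and shares Clopper-Pearson 95% intervals, without the pseudocount of 1 CPM. Counting intervals of medians are medians of the members' bounds. Members and lists were chosen with earlier results of these data known. Named members were the 8 with the highest mean CPM and, per comparison, the 5 lowest and 5 highest ratios at 50 CPM or more in either library, and for companion lists the 2 lowest and 2 highest. Of the genes this rule names, 1 is not reported here. HNRNPAB, HNRNPF, HNRNPH3, SRSF4, SRSF9 and other members outside the rule were added as paralogues, called members or values near a threshold after their values were seen. S and G2M genes were those of Seurat. Cells were thinned with seed 7. Steps were tested on simulated data. Positions are from Gencode 44 on GRCh38, and 36 members matched. Tools were Python 3.11.15, numpy 2.4.6, pandas 2.3.3, scipy 1.17.1, matplotlib 3.10.9, R 4.3.3 and edgeR 4.0.16 (TMM factors only).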

Additional observations from a re-analysis of the deposited data

How the results depend on the processing

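No paired analysis was possible because no group has more than 1 library. The limits are that intervals cover counting error only, that LNCaP–ENZ168 was the shallowest library, and that scaling sets the direction of the second comparison. In VCaP–ENZ48 over VCaP parental, the 15 alternatives gave 45 values for the members together, of which 36 moved little. A count moved little if it was within 1.5-fold of the main count, and a median if it lay inside its counting interval. By this rule 16 lower members with TMM scaling, not centred, beside 11 in the main setting, moved little. The medians among the 45 values stayed below 0. The rest were counts of lower and higher members, which cannot change sign. The median was -0.61 with TMM and -0.55 with median-of-ratios scaling, both not centred, and -0.45 with a minimum of 1 CPM, where the median of all genes moved to 0.17. The count of higher members was 0 under these 3 settings and 0 in cells with few S and G2M UMIs, where 5 were lower, and 2 with a minimum of 50 CPM. Uncentred, TMM called 32.4% of all genes lower and 10.4% higher, and median-of-ratios 28.8% and 11.4%. HNRNPA2B1, SRSF7, HNRNPDL, HNRNPM and SRSF3 were lower by at least 1.5-fold in all 16 settings.

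In LNCaP–ENZ168 over VCaP–ENZ48, the median of the members changed sign to 0.42 with CPM not centred and to 0.19 with totals without mitochondrial and ribosomal protein genes. It was -0.11 with TMM, -0.074 with median-of-ratios and -0.084 with a minimum of 1 CPM. The number lower was 2, 6, 6 and 3 with CPM not centred, TMM, median-of-ratios and the reduced totals, and the number higher 12 and 8 with CPM not centred and the reduced totals. With the reduced totals, 19.7% of all genes were lower and 43.3% higher. With CPM not centred, the hnRNP median was 0.20, HNRNPR 0.058 and SRSF10 0.055. HNRNPUL1 and HNRNPK were lower, and SRSF8 higher, in all 16 settings. These uncentred scalings keep the shift of all genes, which was 0.65 for CPM, in every ratio.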

Other observations

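Among other splicing regulators, QKI, an RNA-binding protein that also controls circular RNA formation, was at 0.489 CPM in VCaP–ENZ48 and 76.8 CPM in LNCaP–ENZ168. CELF1 had a relative ratio of 1.48 in LNCaP–ENZ168 over VCaP–ENZ48, and RBM39 was at -0.67. Of 15 such genes, 3 were lower and 5 higher, beside 28.1% and 26.8% of all genes. In VCaP–ENZ48 over VCaP parental, 2 of 13 were lower and 2 higher, beside 15% and 17.5% of all genes, with RBM25 at -0.65, the epithelial regulator ESRP1 at -0.62 and RBM5, a factor linked to apoptosis, at 0.72.

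Genes known to respond to cell dissociation and heat also differed between the libraries. EGR1 was at 28.6 CPM in VCaP parental and 189 CPM in VCaP–ENZ48 (2.75), and JUN was lower there (-0.96). ATF3 was at 14.7 CPM in VCaP–ENZ48 and 244 CPM in LNCaP–ENZ168 (3.31). The part of such handling differences in the members' ratios was not tested.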
